A study of Mus musculus with 6 samples.

Results

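The nuclear-encoded respiratory chain genes are the nuclear genes for the protein complexes of oxidative phosphorylation, here in mouse adaptive regulatory T cells (aTreg) with and without the bone morphogenetic protein (BMP) receptor BMPR1a. They were chosen by symbol (Ndufa, Ndufb, Ndufc, Ndufs, Ndufv, Sdh, Uqcr, Cox4 to Cox8 and Atp5, without the Ndufaf assembly factors), by protein-coding biotype and by a mean FPKM (fragments scaled to transcript length and library size) of at least 1 over the 6 libraries. This gave 82 of the 25759 genes in the table: 37 in complex I, 8 in complex II, 8 in complex III, 12 in complex IV and 17 in complex V. The filter used levels and not the difference between groups, so levels are given as a description. Of 96 table entries with such symbols, 10 were annotated as pseudogenes and 4 were protein-coding genes below the filter. The 13 protein genes of the mitochondrial genome served as a reference.

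aTreg are CD4 T cells that take on the transcription factor Foxp3 when activated in the presence of TGF-beta. Spleen and lymph node cells of C57BL/6 mice aged 8 to 12 weeks were cultured for 3 days with IL-2 at 10 ng/ml, TGF-beta at 3 ng/ml and concanavalin A at 2 µg/ml, and CD4+ cells positive for a Foxp3-GFP reporter transgene were sorted. The 3 wild type (WT) libraries came from B6 mice labelled normal, and the 3 BMPR1a-deficient libraries from mice labelled BMPR/CD4cre, in which Cre is driven by Cd4 and so acts in the T cell lineage before culture. Both groups carried the reporter, no Cre is named for the WT mice, and whether libraries came from separate animals or cultures is not stated, so the p-values cover the spread among these libraries alone, and that spread may be technical.

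Complex I (NADH dehydrogenase) and complex II (succinate dehydrogenase) pass electrons to ubiquinone, complex III (cytochrome bc1) passes them to cytochrome c, and complex IV (cytochrome c oxidase) passes them to oxygen. Complexes I, III and IV pump protons, and complex V (ATP synthase) uses the gradient to make ATP. Complex II is built only from nuclear-encoded subunits, whereas the others combine nuclear subunits with a few made from mitochondrial DNA. Regulatory T cells are known for a strong reliance on oxidative phosphorylation.

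The targeted gene Bmpr1a was at 1.39, 2.34 and 1.31 FPKM in WT and at 0.439, 0.720 and 0.691 in BMPR1a-deficient aTreg, without overlap (log2 difference -0.71, limma adjusted p = 0.183); the deleted part of the gene is not given in the labels. The 6 libraries held about 30500000 to 38500000 fragments, as read from the size of the smallest steps in the FPKM values. This reading takes FPKM as scaled to each library's own total, and the scaling used is not given. BMPR1a-deficient replicate 1 stood apart from the other 5 libraries. Over the 10362 protein-coding genes tested, the SD of log2(FPKM + 1) relative to the WT mean was 0.58 in that library and 0.34 and 0.35 in replicates 2 and 3 of its group. Across the 82 respiratory chain genes its correlation with the other libraries was 0.945 to 0.949, against 0.992 to 0.998 among the other 5. Results are therefore given with and without it. The T cell markers (6 of 6 above a mean FPKM of 1) summed to 2438 to 2700 FPKM per library and the regulatory T cell markers to 257 to 444. Members of the latter list went different ways. Mean FPKM was 254 in WT and 170 in BMPR1a-deficient aTreg for Ctla4. It was 25.5 and 47.5 for Ikzf2, 56.6 and 83.0 for Il2ra, and 55.9 and 73.4 for Foxp3. Their limma adjusted p ranged from 0.104 to 0.523. Of other cell types, the summed macrophage markers (5 of 5 above 1) ranged from 13.4 FPKM in BMPR1a-deficient replicate 1 to 119 in WT replicate 1, the B cell markers from 24.5 to 47.8 and the CD8 markers from 32.0 to 68.4. The NK, dendritic, erythroid and platelet lists each had 0 members above a mean of 1. The part of other cells in the results was not tested, and in these bulk samples fewer cells of a type and less RNA per cell cannot be told apart.

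Nuclear respiratory chain RNA was close to WT in BMPR1a-deficient aTreg. Of the 82 genes 0 were higher and 0 lower at an adjusted p under 0.05 (limma on log2(FPKM + 1) over 13413 genes), where 1.07% of all genes tested were called, 0.746% higher and 0.321% lower. At an unadjusted p under 0.05 there were 2 of 82, against 15.2% of all genes. The median log2 difference, BMPR1a-deficient minus WT, was 0.04, as it was over all genes tested, and 48 of the 82 differences were positive, against 55.5% of all genes. The smallest adjusted p among the 82 was 0.289. For 72 of them the 95% interval of the difference lay between -1 and 1 on the log2 scale. Without BMPR1a-deficient replicate 1 this held for 81 of 82, and for 68 the interval lay between -0.5 and 0.5. That fit also called 0 of 82 (limma), where it called 1.57% of all genes, 0.999% higher and 0.567% lower. It had 7 of 82 at an unadjusted p under 0.05, against 19.7%, and a median of 0.06, against 0.07 for all genes. With limma weighting the libraries by their spread (array weights), 2 of 82 were called higher, Cox6b2 and Ndufab1, and 0 lower. That fit called 9.24% of all genes tested, 6.21% higher and 3.03% lower.

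Few of these genes separated the groups. For Ndufc1, Ndufab1 and Cox6b2 all 3 BMPR1a-deficient libraries exceeded the highest WT library, which was so for 15.9% of all genes tested. For Ndufv3 all 3 were below the lowest WT library, which was so for 10.4%. The mean of BMPR1a-deficient replicates 2 and 3 was between 0.8 and 1.25 times the WT mean for 76 of the 82 genes (92.7%), against 73.5% of all genes tested. In replicate 1 alone this was so for 40 of the 82 (48.8%), against 40.6% of all genes. The FPKM of the 82 genes summed to 11338 ± 1058 over the WT libraries and to 11669 ± 361 over the BMPR1a-deficient ones (SD, n = 3 each). This was 2.06% ± 0.121 and 2.13% ± 0.0291 of the summed FPKM of all nuclear protein-coding genes (SD, n = 3).

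**Figure D1:**
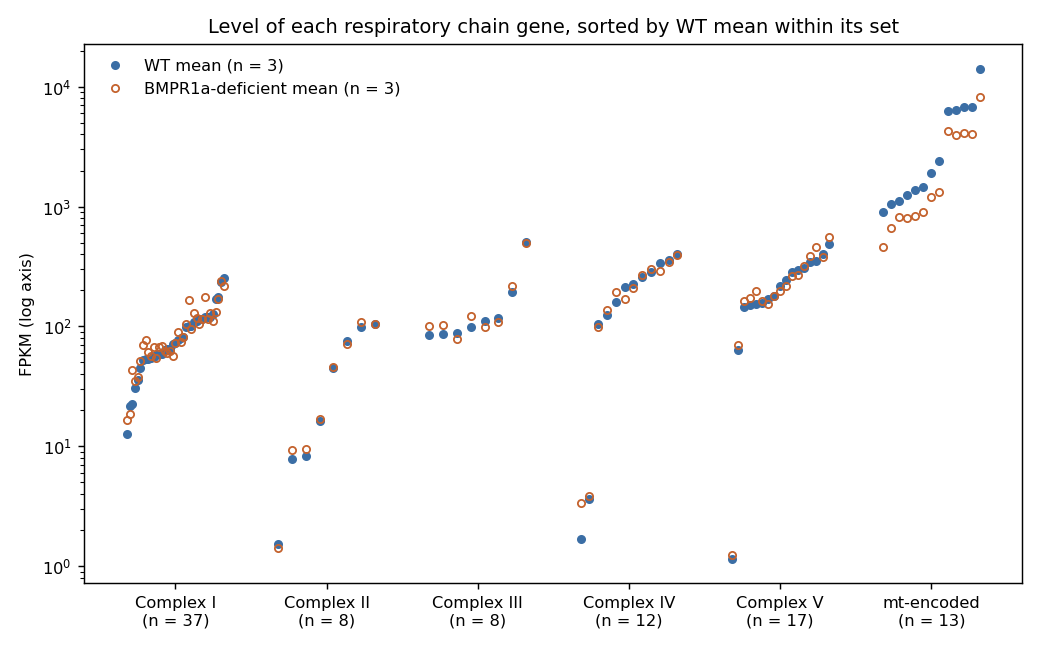
Mean FPKM (log axis) of each respiratory chain gene in WT (filled) and BMPR1a-deficient aTreg (open), 3 libraries each, sorted by the WT mean within complexes I to V and the mitochondrially encoded set. Open and filled points of the nuclear genes lie close together, and the open points of all 13 mitochondrially encoded genes lie below the filled ones.

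Levels within a complex were far from uniform. In complex I, WT means ran from 12.8 ± 1.66 FPKM for Ndufa11 to 253 ± 26.0 for Ndufa3 (SD, n = 3), both membrane-arm accessory subunits. In complex III, Uqcrh, the hinge protein, stood at 510 ± 21.6 FPKM and Uqcr10, next in order, at 196 ± 32.6. The highest of complex V were the catalytic beta subunit gene Atp5b at 485 ± 78.6 and the c subunit gene Atp5g3 at 401 ± 38.5. FPKM is per length of transcript, but it is less reliable for short transcripts. The median length, taken from the longest annotated transcript of each gene, was 1135 bases here against 2791 for all genes tested. Most neighbours in the order did not differ beyond their spread: 29 of 36 neighbouring pairs in complex I were closer than the larger of their SDs, as were 2 of 7 in complex II, 5 of 7 in complex III, 4 of 11 in complex IV and 10 of 16 in complex V.

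The electron-accepting core of complex I is formed by the Ndufs and Ndufv subunits that carry flavin and iron-sulfur clusters. Ndufs1, the largest of them, was at 27.8, 34.9 and 29.5 FPKM in WT and at 38.0, 33.2 and 33.7 in BMPR1a-deficient aTreg. The groups overlapped, with a log2 difference of 0.18 (SE 0.120, limma adjusted p = 0.498). Ndufv1, which binds NADH and flavin, was at 50.005, 60.4 and 46.2 FPKM in WT and at 97.8, 58.5 and 53.0 in BMPR1a-deficient aTreg. Only BMPR1a-deficient replicate 1 was above the WT range, and the log2 difference of 0.37 (SE 0.252, limma adjusted p = 0.519) was 0.10 without it.

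Among the accessory subunits of complex I, Ndufc1 had the largest difference of the 82 genes. This small membrane-arm subunit (chromosome 3, 51404677 to 51408988 in GRCm38) was at 21.8, 24.4 and 21.6 FPKM in WT and at 66.8, 29.6 and 33.5 in BMPR1a-deficient aTreg. The groups did not overlap, and replicate 1 lay far above replicates 2 and 3. The log2 difference was 0.82 (SE 0.304, 95% interval 0.07 to 1.56, limma adjusted p = 0.303), and 0.46 without replicate 1 (SE 0.0925, limma adjusted p = 0.101). Ndufab1, the acyl carrier protein that is both a complex I subunit and part of mitochondrial fatty acid synthesis, was at 54.3, 57.3 and 56.6 FPKM in WT and at 57.9, 70.3 and 72.0 in BMPR1a-deficient aTreg. Here replicate 1 was the lowest of its group and just above the WT range, and the log2 difference of 0.24 (limma adjusted p = 0.385) was 0.34 without it (SE 0.0575, limma adjusted p = 0.0793). Ndufv3, an accessory subunit beside the flavin module, was at 134, 125.5 and 119 FPKM in WT and at 112.1, 111.5 and 111.9 in BMPR1a-deficient aTreg, a log2 difference of -0.17 (limma adjusted p = 0.450).

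For other accessory subunits of complex I named by the size of their difference or their level, replicate 1 was the library farthest from WT. Ndufb7 was at 112, 101 and 87.1 FPKM in WT and at 286, 110 and 106 in BMPR1a-deficient aTreg, so its log2 difference of 0.58 (limma adjusted p = 0.517) was 0.12 without replicate 1. Ndufa1, on the X chromosome and needed for assembly of the membrane arm, was at 185, 183 and 136 FPKM in WT and at 89.5, 160 and 148 in BMPR1a-deficient aTreg. Its difference of -0.37 (limma adjusted p = 0.520) was -0.12 without replicate 1. Ndufs5 was at 69.9, 85.1 and 59.3 FPKM in WT and at 50.8, 59.9 and 58.7 in BMPR1a-deficient aTreg, a log2 difference of -0.32 (limma adjusted p = 0.392), with overlap of the groups. Without replicate 1 it was -0.25 (limma adjusted p = 0.449), the most negative of the 82 genes in that fit. Ndufa11, a membrane-arm subunit at the lowest level of the complex, was at 14.5, 12.7 and 11.1 FPKM in WT and at 21.7, 14.1 and 13.6 in BMPR1a-deficient aTreg, where only replicate 1 was above the WT range.

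**Figure D2:**
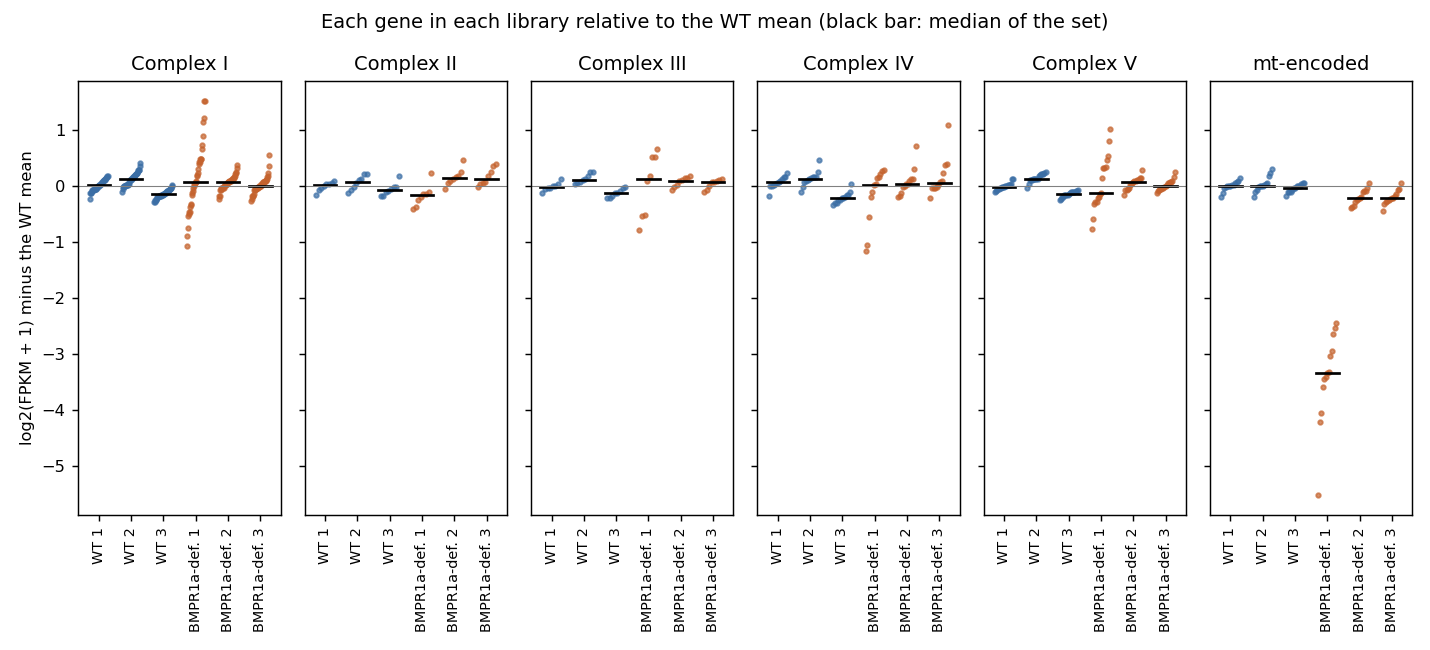
Each gene in each of the 6 libraries as log2(FPKM + 1) minus its WT mean, for complexes I to V and the mitochondrially encoded genes, with a black bar at the median of each set. The nuclear genes spread widely in BMPR1a-deficient replicate 1 around a median near 0, and the mitochondrially encoded genes lie far below 0 in that library with a median of -3.34.

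Complex II joins the respiratory chain to the tricarboxylic acid cycle. Its flavin subunit gene Sdha was at 87.8, 115 and 95.3 FPKM in WT and at 117, 110 and 103 in BMPR1a-deficient aTreg. The iron-sulfur subunit gene Sdhb was at 109, 114 and 91.9 FPKM and at 97.1, 109 and 110. The membrane anchor gene Sdhd was at 73.1, 86.8 and 66.2 FPKM in WT and at 56.1, 82.1 and 76.6 in BMPR1a-deficient aTreg. The groups overlapped for all 3 genes, with log2 differences of 0.15, 0.01 and -0.08 (limma adjusted p = 0.589, 0.975 and 0.842). The symbol rule also took in 4 assembly factors, which help to insert cofactors or to join the subunits and are not subunits themselves. Sdhaf1, which serves the iron-sulfur subunit, was at 7.38, 7.10 and 8.93 FPKM in WT and at 6.37, 11.2 and 10.2 in BMPR1a-deficient aTreg. Sdhaf4, which serves the flavin subunit, was at 8.90, 7.89 and 8.23 FPKM and at 7.17, 10.2 and 11.2. In both, replicates 2 and 3 lay above the WT range and replicate 1 below it. The log2 difference was 0.19 for Sdhaf1 and 0.15 for Sdhaf4 (limma adjusted p = 0.669 and 0.668), and 0.41 and 0.32 without replicate 1 (limma adjusted p = 0.172 and 0.154). The exons of Sdhaf1 overlap those of the opposite-strand gene E130208F15Rik over 69.6% of their length, and no strand handling is given, so reads of the pair cannot be told apart. Sdhaf3 was at 1.52 ± 0.193 and 1.40 ± 0.102 FPKM (SD, n = 3).

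In complex III, Uqcrfs1 encodes the Rieske iron-sulfur protein that takes electrons from ubiquinol. It was at 88.6, 96.3 and 80.9 FPKM in WT and at 61.4, 89.7 and 84.5 in BMPR1a-deficient aTreg. Its log2 difference was -0.19 (SE 0.171, limma adjusted p = 0.605), and -0.02 without replicate 1, the one library outside the WT range. Uqcrb, a ubiquinone-binding accessory subunit, was at 101, 132 and 101 FPKM in WT and at 63.6, 109 and 121 in BMPR1a-deficient aTreg. Uqcrq was at 107, 102 and 86.1 FPKM in WT and at 156, 108 and 103 in BMPR1a-deficient aTreg. These 2 genes were the lowest and the highest of the complex by log2 difference, at -0.22 and 0.29 (limma adjusted p = 0.695 and 0.504), in each case through replicate 1. Uqcr11, a small subunit, was at 85.7, 95.2 and 72.0 FPKM and at 120, 92.5 and 88.6, a log2 difference of 0.25 (limma adjusted p = 0.519). Uqcrh was at 492, 534 and 504 FPKM and at 543, 487 and 475, with overlap of the groups.

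Complex IV is the set in which vertebrates carry tissue-specific subunit pairs, with forms for heart and skeletal muscle, testis, or low oxygen beside the common ones. The common forms dominated. Cox6a1 was at 288, 273 and 215 FPKM in WT and at 287, 262 and 254 in BMPR1a-deficient aTreg, whereas its muscle counterpart Cox6a2 had a mean of 0.0579 over the 6 libraries. Cox8a was accompanied by Cox8b at a mean of 0.0217, the low-oxygen form Cox4i2 had a mean of 0.0148, and Ndufa4l2, the low-oxygen counterpart of Ndufa4, one of 0.00513. These 4 are the protein-coding genes that missed the filter. Cox4i1, the common counterpart of Cox4i2, was not analysed here. Just inside the filter were Atp5s at a mean of 1.19 FPKM and Sdhaf3 at 1.46. Cox7a1, the muscle form, made up 2.20% ± 0.630 of the summed FPKM of Cox7a1 and Cox7a2 for WT and 1.92% ± 0.393 for BMPR1a-deficient aTreg (SD, n = 3).

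Cox6b2, known as the testis form of a subunit on the cytochrome c side, was the only such tissue form with separated groups. It was low, at 2.09, 1.84 and 1.09 FPKM in WT and at 2.23, 3.34 and 4.601 in BMPR1a-deficient aTreg. Replicate 1 was just above the WT range. The log2 difference was 0.70 (SE 0.253, 95% interval 0.08 to 1.32, limma adjusted p = 0.289), and 0.90 without replicate 1 (SE 0.222, limma adjusted p = 0.140). About 51 fragments per library stood behind this gene, the fewest of the 82. Its common counterpart Cox6b1 was at 378, 380 and 322 FPKM in WT and at 315, 359 and 353 in BMPR1a-deficient aTreg, so Cox6b2 made up 0.457% ± 0.108 of the pair for WT and 0.972% ± 0.295 for BMPR1a-deficient aTreg (SD, n = 3). Ndufa4 is named for complex I and now known as a subunit of complex IV. The symbol rule placed it in complex I, so the complex I counts, medians and sums here include it. Ndufa4 was at 233, 263 and 213 FPKM and at 163, 281 and 277, with replicate 1 below and replicates 2 and 3 above the WT range.

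Of the common complex IV subunits, Cox7c and Cox8a had the most negative differences. Cox7c was at 212, 251 and 178 FPKM in WT and at 94.7, 208 and 206 in BMPR1a-deficient aTreg. Cox8a was at 365, 333 and 312 FPKM in WT and at 162, 358 and 356 in BMPR1a-deficient aTreg. Replicates 2 and 3 lay within the WT range for both, and their log2 differences of -0.40 and -0.29 (limma adjusted p = 0.574 and 0.675) were -0.03 and 0.09 without replicate 1. Cox7a2 was at 178, 176 and 129 FPKM in WT and at 177, 196 and 209 in BMPR1a-deficient aTreg, a log2 difference of 0.28 (limma adjusted p = 0.461). Cox7a2l, known as a factor for supercomplexes of complexes III and IV, was at 418, 373 and 411 FPKM in WT. In BMPR1a-deficient aTreg it was at 482, 348 and 345, with replicate 1 above and replicates 2 and 3 below the WT range. Whether it has this role in this mouse strain was not tested.

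**Figure D3:**
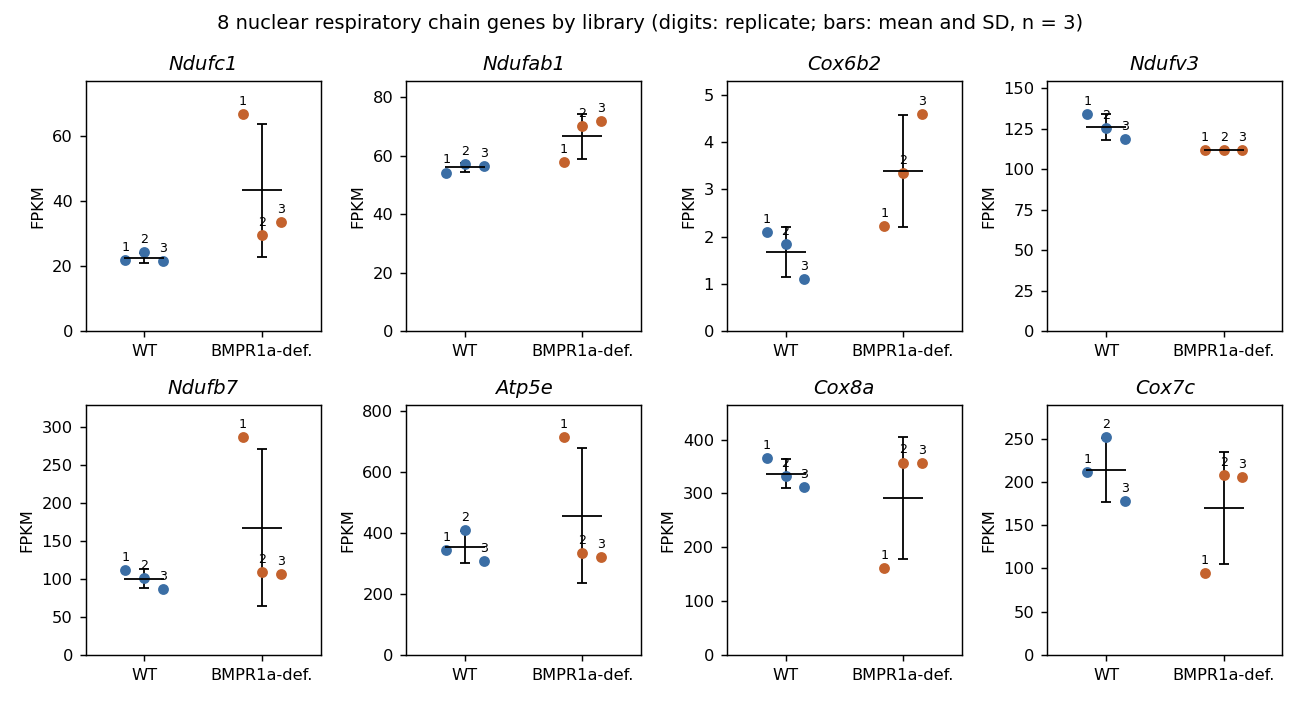
FPKM of 8 genes in each library (points, with the replicate number), with the mean and SD of each group (n = 3). Ndufc1, Ndufab1, Cox6b2 and Ndufv3 separate the groups, whereas Ndufb7, Atp5e, Cox8a and Cox7c differ through BMPR1a-deficient replicate 1.

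Complex V has a catalytic F1 head, a rotating c ring with a central stalk, and a peripheral stalk. For the head, Atp5a1 was at 333, 376 and 322 FPKM in WT and at 426, 369 and 362 in BMPR1a-deficient aTreg. Atp5b was at 450, 575 and 430 FPKM and at 668, 513 and 499. Their log2 differences were 0.17 and 0.21 (limma adjusted p = 0.564 and 0.599), with replicate 1 the only library above the WT range in each. In the central stalk, Atp5e was at 345, 409 and 308 FPKM in WT and at 714, 336 and 321 in BMPR1a-deficient aTreg. Atp5c1, the gamma subunit of the same stalk, was at 239, 262 and 225 FPKM in WT and at 160, 250 and 240 in BMPR1a-deficient aTreg. The differences were 0.27 and -0.18 (limma adjusted p = 0.702 and 0.665), and replicate 1 lay on opposite sides of the WT range for these 2 partners.

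The peripheral stalk gene Atp5j was at 168, 185 and 158 FPKM in WT and at 99.1, 179 and 182 in BMPR1a-deficient aTreg. The membrane subunit gene Atp5j2 was at 165, 156 and 136 FPKM in WT and at 266, 168 and 159 in BMPR1a-deficient aTreg. These had the most negative and the most positive log2 difference of complex V, -0.20 and 0.34 (limma adjusted p = 0.712 and 0.501). The genes Atp5g1, Atp5g2 and Atp5g3 encode c subunits with the same mature protein and different import sequences. Their shares of the summed c subunit FPKM were 9.84% ± 0.699, 28.0% ± 0.483 and 62.1% ± 0.217 for WT and 10.9% ± 0.673, 28.7% ± 1.54 and 60.4% ± 1.08 for BMPR1a-deficient aTreg (SD, n = 3). Thus the order of the 3 genes was the same in both groups. Atp5s, which shares the symbol but is not an ATP synthase subunit, was at 1.148 ± 0.173 and 1.24 ± 0.252 FPKM (SD, n = 3).

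By complex, the median log2 difference was 0.04 for complex I, 0.03 for complex II, 0.06 for complex III, 0.01 for complex IV and 0.05 for complex V, beside 0.04 for all genes tested. Without BMPR1a-deficient replicate 1 these were 0.04, 0.12, 0.08, 0.06 and 0.04, beside 0.07 for all genes. The complex II values include the Sdhaf assembly factors, whereas the Ndufaf factors were left out of complex I. Without replicate 1, Sdha, Sdhb, Sdhc and Sdhd had differences of 0.11, 0.07, 0.22 and 0.08. Those of Sdhaf1, Sdhaf2, Sdhaf3 and Sdhaf4 were 0.41, 0.13, -0.03 and 0.32. The summed FPKM was 3258 ± 294 and 3410 ± 177 for complex I, 358 ± 33.0 and 370 ± 31.6 for complex II, and 1293 ± 102 and 1328 ± 39.7 for complex III in WT and BMPR1a-deficient aTreg (SD, n = 3). It was 2478 ± 228 and 2414 ± 135 for complex IV and 3952 ± 435 and 4147 ± 305 for complex V (SD, n = 3). Each of these differences was smaller than the SD of the WT libraries.

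**Figure D4:**
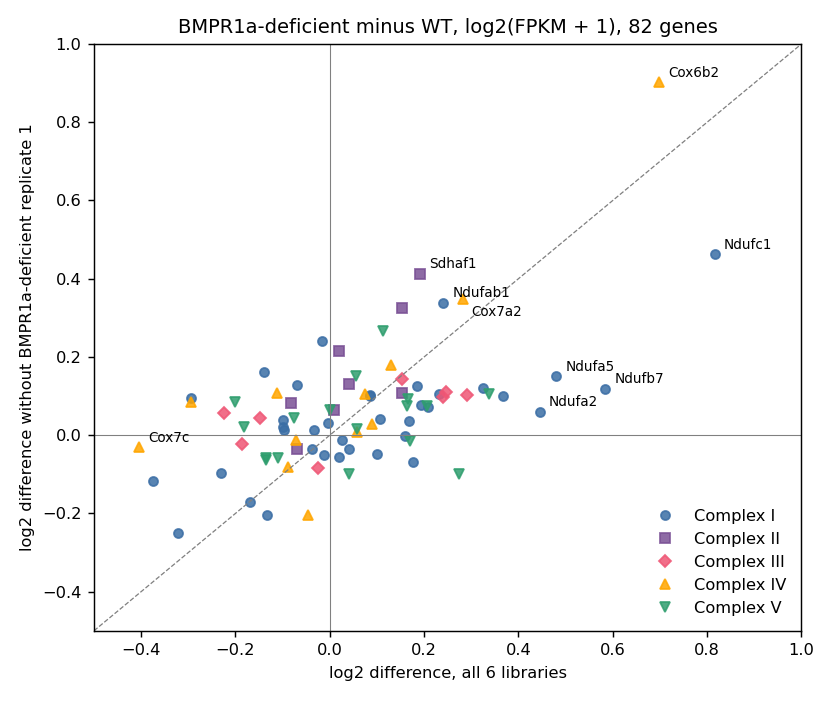
Log2 difference of each of the 82 genes, BMPR1a-deficient minus WT on log2(FPKM + 1), with all 6 libraries (x axis) and without BMPR1a-deficient replicate 1 (y axis), and a dashed line of equality. Most genes lie closer to 0 on the y axis, and Cox6b2 and Ndufc1 lie highest.

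In BMPR1a-deficient replicate 1 the nuclear genes were spread widely, with a median of 0.04 relative to the WT mean (log2). Of the 82 genes, 30 were above and 31 below all other 5 libraries in it, where 28.5% and 37.9% of all genes tested were. At least 1.5 times the WT mean was reached by 10 of the 82, against 14.3% of all genes, and at most the WT mean divided by 1.5 by 8 of the 82, against 20.5%. The ratio to the WT mean ran from 0.443 for Cox7c to 2.96 for Ndufc1. By complex, 16 genes of complex I were above all other libraries and 10 below, 4 and 3 of complex III, 2 and 4 of complex IV, and 7 and 8 of complex V. Complex II had 1 gene above and 6 below, with a median of -0.17. The 6 below were Sdhc, Sdhd and the assembly factors Sdhaf1 to Sdhaf4, which are not subunits. The subunit genes Sdha, Sdhb, Sdhc and Sdhd were at 0.24, -0.10, -0.37 and -0.41 relative to the WT mean in this library (log2). The SD of the relative values in replicate 1 was 0.62, 0.56, 0.50 and 0.49 in complexes I, III, IV and V (log2). In complex II it was 0.20 over subunits and assembly factors together, beside 0.16 and 0.15 in replicates 2 and 3. Of the 12 core and catalytic subunits 8 were above and 2 below. Their median GC content was 53.6% and that of the 82 genes 49.9%. Across the 82 genes Spearman's rho between GC content and the value of that library relative to WT was 0.30, and across the 10362 protein-coding genes it was 0.31; genes are not independent replicates. For replicates 2 and 3 rho across the 82 genes was 0.01 and -0.02. With transcript length rho across the 82 genes was 0.17, 0.22 and 0.16 in replicates 1, 2 and 3, and across the protein-coding genes it was -0.01, 0.03 and 0.07. The part of GC content or length in the pattern was not tested.

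The promoters of these genes were searched for 3 motifs known from nuclear genes of the respiratory chain, on both strands: the NRF1 site, the ETS-family site CCGGAAG and the YY1 site, whose letters are the first capitals of the Atp5j stretch. RefSeq windows of GRCm38.p6, 250 bases before to 50 after the transcription start, were matched for 71 of the 82 genes. The ETS letters were in 25.0% of the 76 windows of these genes and in 8.86% of all 32851 windows. The NRF1 letters were in 6.58% and 0.971%, and the YY1 letters in 6.58% and 0.852%. The set of all windows was not filtered by biotype or level, unlike the 82 genes. Shares among other expressed protein-coding genes were not computed, so these contrasts need not be particular to the respiratory chain. Of the 19 genes with the ETS letters, 7 were above all other libraries in BMPR1a-deficient replicate 1, 10 below and 2 within. Over all 82 genes 30 were above, 31 below and 21 within, and of all genes tested 28.5% were above and 37.9% below. The 5 genes with the NRF1 letters had counts of 2, 1 and 2. The 5 with the YY1 letters had 3, 1 and 1. Whether these counts differ was not tested. Windows of 120 bases before to 20 after the start are printed for 2 genes that were high in that library (Ndufb7 and Atp5e) and 2 that were low (Cox8a and Atp5j), as examples of the ETS letters in genes of either kind. Capitals mark the motif matches, and each is 5′ to 3′ on the gene's strand.
Ndufb7 (chr8:83566638-83566777, + strand): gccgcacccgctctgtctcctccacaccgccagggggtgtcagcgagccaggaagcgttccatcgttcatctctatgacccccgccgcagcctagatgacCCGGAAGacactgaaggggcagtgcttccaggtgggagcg
Atp5e (chr2:174464082-174464221, - strand): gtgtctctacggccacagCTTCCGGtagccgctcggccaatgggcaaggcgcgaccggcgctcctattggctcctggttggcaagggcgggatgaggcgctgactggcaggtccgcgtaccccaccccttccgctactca
Cox8a (chr19:7217597-7217736, - strand): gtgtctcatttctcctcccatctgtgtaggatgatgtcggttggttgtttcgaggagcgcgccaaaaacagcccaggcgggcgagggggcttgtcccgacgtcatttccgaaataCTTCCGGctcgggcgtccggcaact
Atp5j (chr16:84834957-84835096, - strand): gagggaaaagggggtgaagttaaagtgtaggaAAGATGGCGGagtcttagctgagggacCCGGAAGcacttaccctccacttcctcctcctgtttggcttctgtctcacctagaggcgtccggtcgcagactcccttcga
RefSeq has a further Atp5j window, at an upstream start, whose same stretch (chr16:84835606-84835745) holds none of the 3 motifs. In Atp5j the first capitals are the YY1 letters and the second the ETS letters. In Atp5e and Cox8a the ETS letters lie on the other strand and read CTTCCGG. A match describes the letters only.

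Of the mitochondrially encoded partners, all 13 were below every other library in BMPR1a-deficient replicate 1. Their summed FPKM was 51151, 53789 and 50442 over the WT libraries and 5335, 44657 and 44713 over the BMPR1a-deficient ones, so replicate 1 was at 10.3% of the WT mean and replicates 2 and 3 together at 86.3%. The nuclear genes summed to 106% and 101% of WT in these libraries. The ratio of the mitochondrial to the nuclear sum was 4.47, 4.36 and 4.93 for WT and 0.442, 3.85 and 3.94 for BMPR1a-deficient libraries. Each BMPR1a-deficient library was thus below the WT range in this ratio.

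**Figure D5:**
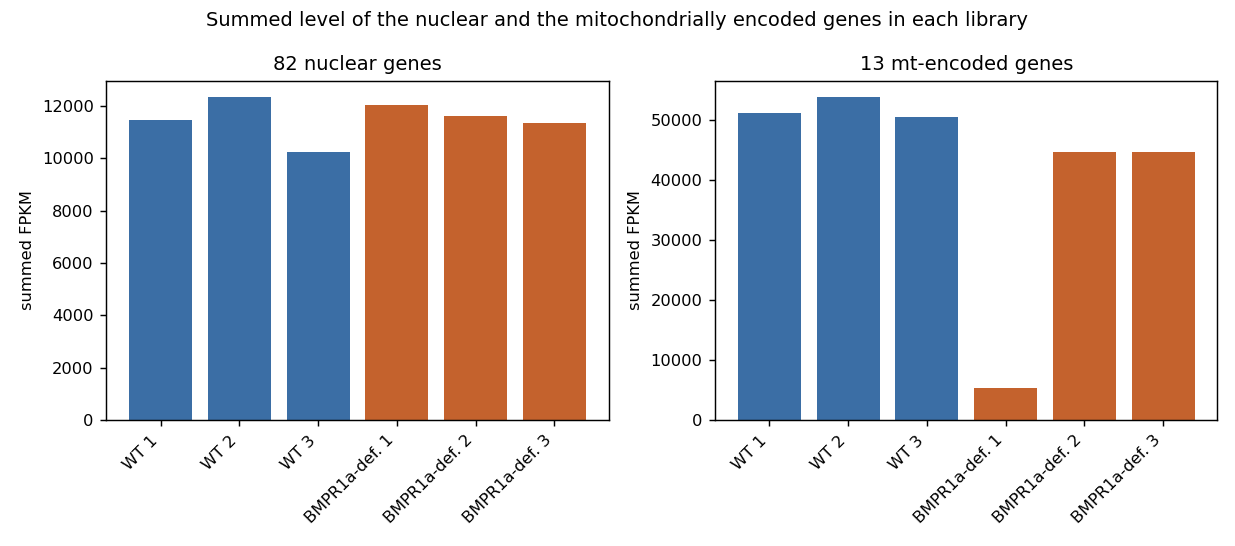
Summed FPKM per library of the 82 nuclear genes (left) and the 13 mitochondrially encoded genes (right), on separate axes that start at 0. The nuclear sums lie between 10229 and 12338, while the mitochondrial sum is 5335 in BMPR1a-deficient replicate 1 and 44657 to 53789 in the other 5 libraries.

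No mitochondrially encoded gene passed the threshold over all genes: 0 of 13 were called and 0 had an unadjusted p under 0.05 (limma), with a median log2 difference of -1.23 and a median SE of 0.872. In 9 of 13 all BMPR1a-deficient values were below the lowest WT value, as for 10.4% of all genes tested. Replicate 1 was below every other library for all 13, so this count rests on replicates 2 and 3. Both of these were below all WT libraries for 13.8% of all genes tested. The 13 genes belong to the same mitochondrial genome and are not independent observations. Without BMPR1a-deficient replicate 1 the median was -0.22, with 0 of 13 called, 3 at an unadjusted p under 0.05 and 12 of 13 negative. Of all genes tested, that fit called 1.57%, 19.7% had an unadjusted p under 0.05, and 8464 of 13413 were positive. Among the complex I genes, mt-Nd4 was at 1376, 1379 and 1374 FPKM in WT and at 136, 1175 and 1191 in BMPR1a-deficient aTreg, and its log2 difference of -1.25 was -0.22 without replicate 1 (limma adjusted p = 0.516 and 0.212). The complex III gene mt-Cytb was at 2355, 2455 and 2336 FPKM in WT and at 197, 1860 and 1897 in BMPR1a-deficient aTreg. Its difference of -1.42 was -0.34 without replicate 1 (95% interval -0.56 to -0.12, limma adjusted p = 0.487 and 0.138). The complex IV gene mt-Co1 was at 6831, 6453 and 7015 FPKM and at 1076, 5229 and 5764, and mt-Co2 at 6711, 6775 and 6703 and at 1241, 5523 and 5551. For both, replicates 2 and 3 were below the WT range as well.

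In replicate 1 the summed mitochondrial genes of complex V were at 4.29% of their WT mean there, those of complex I at 9.32%, that of complex III at 8.27% and those of complex IV at 17.2%. These are sums in 1 library, and differences between complexes were not tested. By gene the ratio to the WT mean was 0.0216 for mt-Atp8 and 0.0913 for mt-Atp6 of complex V, from 0.0529 (mt-Nd2) to 0.128 (mt-Nd6) in complex I, and from 0.159 (mt-Co1) to 0.184 (mt-Co2) in complex IV. mt-Atp8, a short gene that overlaps mt-Atp6, was at 12945, 16581 and 13109 FPKM in WT and at 307, 12286 and 11939 in BMPR1a-deficient aTreg. mt-Atp6 was at 6566, 5811 and 6407 FPKM and at 571, 6138 and 6036. mt-Nd6, the gene on the other strand of the genome, was at 1226, 973 and 1161 FPKM and at 143, 1163 and 1164, within the WT range in replicates 2 and 3.

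The other complex I genes mt-Nd1, mt-Nd2, mt-Nd3, mt-Nd4l and mt-Nd5 had log2 differences of -1.23, -1.46, -1.23, -1.63 and -1.14. Without replicate 1 these were -0.14, -0.08, -0.18, -0.41 and -0.18. That of mt-Co3 was -0.999 and -0.23. As read from the FPKM steps, library depth in replicate 1 was close to that of the others, at about 36700000 fragments. This reading takes FPKM as scaled to each library's own total.

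Lists of other genes, 10 of mitochondrial function and 1 of cytosolic ribosomal proteins, were read from the same fits. In each of the 11 lists 0 members passed the threshold (limma, with and without BMPR1a-deficient replicate 1), where 1.07% and 1.57% of all genes tested did. The counts at an unadjusted p under 0.05 given for each list stand beside 15.2% of all genes, and those of positive differences beside 55.5%. Of the 8 tested electron carriers and related genes outside the symbol rule, 0 were called and 0 had an unadjusted p under 0.05, with a median log2 difference of 0.13. The list includes Cyc1, the cytochrome c1 gene of complex III, which the complex III values and the core and catalytic subunits above leave out. It was at 68.7, 76.2 and 64.2 FPKM in WT and at 68.2, 82.8 and 78.1 in BMPR1a-deficient aTreg (limma adjusted p = 0.618). Etfb, which passes electrons from fatty acid oxidation to the chain, was at 54.5, 63.7 and 45.9 FPKM in WT and at 161, 71.0 and 70.2 in BMPR1a-deficient aTreg (limma adjusted p = 0.369). Dhodh, the pyrimidine synthesis enzyme that feeds ubiquinone, was at 7.23, 9.20 and 7.68 FPKM and at 14.9, 8.01 and 7.93.

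The 15 tested complex I assembly factors had a median of 0.13 with 1 unadjusted p under 0.05. Acad9 was at 22.3, 24.0 and 22.1 FPKM in WT and at 34.4, 27.9 and 29.8 in BMPR1a-deficient aTreg, a log2 difference of 0.41 (SE 0.107, limma adjusted p = 0.169). The groups did not overlap. Timmdc1 was at 9.60, 10.1 and 9.08 FPKM and at 16.8, 10.2 and 10.0. The 30 tested assembly factors of complexes III, IV and V had a median of 0.07 with 2 such p-values. Atpif1, an inhibitor of ATP synthase, was at 114, 94.1 and 86.3 FPKM in WT and at 152, 124 and 123 in BMPR1a-deficient aTreg (log2 difference 0.44, limma adjusted p = 0.274). Higd2a was at 66.8, 55.6 and 64.1 FPKM and at 26.0, 64.9 and 61.8.

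The genes that maintain and express mitochondrial DNA had a median near that of all genes. The 28 tested had a median log2 difference of 0.04, 2 with an unadjusted p under 0.05, and a median of 0.02 in replicate 1 relative to WT. They spread widely in that library, with an SD of 0.49 (log2). There 12 were above and 12 below all other libraries, as were 28.5% and 37.9% of all genes tested. Rexo2, a mitochondrial exonuclease, was at 69.6, 96.3 and 63.9 FPKM in WT and at 123, 98.9 and 93.7 in BMPR1a-deficient aTreg, and Fastkd2 at 4.53, 7.94 and 5.59 and at 9.97, 7.08 and 7.18. The 16 tested regulators of mitochondrial biogenesis had a median of 0.03 with 1 unadjusted p under 0.05. Hif1a was at 77.9, 86.4 and 80.3 FPKM in WT and at 34.4, 61.4 and 68.1 in BMPR1a-deficient aTreg (log2 difference -0.63, limma adjusted p = 0.336), and Ppard at 8.65, 9.33 and 7.84 and at 13.7, 10.1 and 10.5 (0.36, limma adjusted p = 0.309).

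The 19 tested tricarboxylic acid cycle genes had a median log2 difference of 0.13 and 2 unadjusted p-values under 0.05. Fh1, which encodes fumarase, was at 24.3, 34.0 and 26.2 FPKM in WT and at 42.1, 41.3 and 41.3 in BMPR1a-deficient aTreg, with no overlap of the groups (log2 difference 0.56, SE 0.139, limma adjusted p = 0.153). Suclg2 was at 10.1, 16.7 and 12.98 FPKM and at 15.3, 17.3 and 17.3. The 14 tested genes of mitophagy and mitochondrial dynamics had a median of 0.05 with 2 such p-values. Bnip3, a mitophagy receptor, was at 7.10, 13.2 and 15.7 FPKM in WT and at 2.91, 4.59 and 5.14 in BMPR1a-deficient aTreg (log2 difference -1.28, SE 0.314, limma adjusted p = 0.150). Pink1, a kinase that marks damaged mitochondria, was at 37.3, 31.0 and 49.7 FPKM and at 28.2, 20.7 and 22.8 (-0.68, SE 0.203, limma adjusted p = 0.214). For both, all 3 BMPR1a-deficient libraries were below the lowest WT library.

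The 23 tested protein import genes had a median of 0.12 and the 16 antioxidant and coupling genes one of 0.04, with 1 unadjusted p under 0.05 each. Hspa9, the import motor chaperone, was at 42.4, 88.6 and 59.7 FPKM in WT and at 101, 72.5 and 73.7 in BMPR1a-deficient aTreg. Timm22 was at 19.5, 23.5 and 17.9 FPKM and at 28.8, 24.3 and 25.7. Sod1 was at 342, 350 and 310 FPKM and at 542, 355 and 366, and Prdx3 at 36.8, 50.5 and 40.1 and at 22.3, 43.0 and 41.4. The 77 mitochondrial ribosomal protein genes had a median of 0.08 and 2 unadjusted p-values under 0.05. Mrpl28 was at 30.4, 35.2 and 26.6 FPKM and at 79.3, 36.4 and 36.4, and Mrpl12 at 30.4, 30.4 and 27.9 and at 67.8, 35.7 and 36.3. The 85 cytosolic ribosomal protein genes, which are short and abundant as well, had a median of -0.16 with 26 positive differences and 4 unadjusted p-values under 0.05. Rpl29 was at 1010, 1019 and 933 FPKM in WT and at 366, 614 and 361 in BMPR1a-deficient aTreg (limma adjusted p = 0.0940), and Rps18 at 3056, 3650 and 3002 and at 1062, 2733 and 2117. Many genes of these 2 families have near-identical copies, so the division of reads is uncertain.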

How the data were processed

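RNA of 3 WT and 3 BMPR1a-deficient sorted aTreg libraries was measured by sequencing. The deposited values are FPKM, made by the authors with TopHat2, Cufflinks and Cuffdiff on GRCm38.p4, per the submitters' processing notes. Tool versions, annotation, strand handling and library scaling: not given in the sources used here. Columns were assigned by name, with 0 left unmapped. Symbols, biotypes, lengths and positions came from GENCODE M21 (GRCm38), which matched 24876 of 25759 identifiers. Length and GC content are those of the longest annotated transcript of each gene, which need not be the one measured. The fragments per gene rest on these lengths. The 13413 genes whose FPKM averaged 1 or more were compared between groups by limma 3.58.1 (R 4.3.3) after log2(FPKM + 1), moderating variances along an intensity trend. Its p-values are two-sided and were adjusted by Benjamini-Hochberg over these genes, with a threshold of 0.05. Fold differences on this scale are understated for low genes. Depth was read from the densest low value of FPKM times length in 2416 genes with 1 annotated transcript of 1500 to 6000 bases, and is approximate. The fit was tested on simulated data, 3 libraries against 3. It recovered 59% of genes with a log2 change of 1 and 87% of those with 2. Of its 151 calls, 3.31% were false. Recovery in the real libraries was not measured. Named genes are the 2 members with the most positive and the 2 with the most negative difference in each complex, the highest and lowest by level, tissue forms with their counterparts, core subunits, the 13 mitochondrial genes and up to 2 genes of each list. Ndufab1, Ndufv3 and a few further genes were named after their values were seen. Members and lists were chosen with earlier results of these data known. There were 19 alternatives: the pseudocount, the filter, scaling, eBayes settings, sample weights, a replicate block, GC and length corrections, biotype and each library left out.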

Additional observations from a re-analysis of the deposited data

How the results depend on the processing

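With all 6 libraries weighted by limma's array weights, which gave BMPR1a-deficient replicate 1 a weight of 0.117, the count of higher members went from 0 to 2, Cox6b2 (log2 difference 0.92, adjusted p = 0.0462) and Ndufab1 (0.33, adjusted p = 0.0260), where 9.24% of all genes were called. In the other 18 alternatives 0 of 82 were called in either direction (limma). With quantile normalization the median log2 difference of complex III was 0.21. The other complex medians moved by less than the spread between libraries in all 19 alternatives, and the median of the 13 mitochondrially encoded genes was -0.22 without BMPR1a-deficient replicate 1. Of 37 named members, 17 changed the sign of an uncalled difference in at least 1 alternative. Whether the replicate numbers pair the samples could not be settled. Correlations of deviations between samples of the same number were 0.01, 0.06 and 0.05, too small to decide it. WT replicates 2 and 3 correlated best with their own number, and WT replicate 1 with BMPR1a-deficient replicate 3 (0.04). The replicate block left 0 of 82 called, with 5 higher and 5 lower over all genes instead of 100 and 43. Over all genes, calls were 833 higher and 407 lower with array weights, 202 and 94 among protein-coding genes, 88 and 70 with quantile normalization and 144 and 58 with robust eBayes. Leaving out 1 library gave 10 to 134 higher and 4 to 76 lower. Low depth limits Cox6b2, Cox7a1 and Atp5s, with about 51 to 66 fragments per library. The causes were not tested.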

Other observations

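Processed pseudogenes of respiratory chain genes were also listed in the table. Ndufb4c was at 18.5, 23.3 and 16.5 FPKM in WT and at 5.03, 19.98 and 20.4 in BMPR1a-deficient aTreg, and Ndufb4 at 20.3, 24.3 and 20.65 and at 9.76, 21.95 and 24.6. Both were lowest in BMPR1a-deficient replicate 1. Atp5l-ps1 was at 9.27, 9.41 and 9.47 FPKM and at 16.7, 10.2 and 9.83, whereas Atp5l was at 221, 254 and 183 and at 179, 209 and 207, so replicate 1 was the highest library for the one and the lowest for the other. How reads were divided between such copies is not given in the sources used here.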
